A study of Homo sapiens with 9 samples.

Results

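The D cyclins CCND1, CCND2 and CCND3, the kinases CDK4 and CDK6, the kinase inhibitors CDKN1A, CDKN1B, CDKN2A and CDKN2C, and the retinoblastoma gene RB1 together form the G1 gate of the cell cycle. They were followed at every array probe set whose platform symbol was 1 of these 10 names. Probe sets were found for 9 of the 10 genes, 15 of the 22215 probe sets left without controls, and the 9 genes stood among 11963 that could be named. CDKN2C was not analysed here, since no probe set carried that single symbol in the annotation table used.

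Transcript levels were read from 9 Affymetrix Human Genome arrays, covering 6 established human cell lines. The plasma cell myeloma (PCM) lines L363, U266 and LP1 had 1 array each, and the B-cell lymphoma lines Namalwa, SU-DHL6 and SU-DHL4 had 2 arrays each. The titles of the B-cell arrays say untreated, and the titles of the PCM arrays name no treatment. Each line was grown from 1 tumour, so the lines are the replicates of a group, and the duplicate arrays of a line measure spread within that line alone. The Namalwa arrays came from earlier work of the same group, and the other arrays were newly made for the study. As background, Namalwa is a Burkitt lymphoma line, SU-DHL6 and SU-DHL4 come from diffuse large B-cell lymphomas, and the PCM lines model the antibody-secreting end stage of the B lineage.

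D cyclins are made when growth signals reach a cell in G1, and they bind CDK4 or CDK6 to form an active kinase. That kinase phosphorylates the retinoblastoma protein, which otherwise holds E2F transcription factors inactive, and freed E2F switches on genes for DNA replication. Proteins of the INK4 family, such as the p16 product of CDKN2A, block CDK4 and CDK6, while p21 from CDKN1A and p27 from CDKN1B bind cyclin and kinase complexes and restrain above all CDK2. Myelomas are known for raised transcription of 1 or another D cyclin, often through a chromosomal rearrangement at the immunoglobulin heavy chain locus. Among lymphomas, CCND3 is the D cyclin that germinal centre B cells are known to rely on.

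Values are RMA log2 values, on which 1 unit is a factor of 2 in signal, and they compare a probe set between arrays but not with another probe set. A probe set was called at a limma adjusted p under 0.05, adjusted by Benjamini-Hochberg over all 22215 probe sets. The PCM against B-cell test ran on 3 lines against 3 lines, with the duplicates of a B-cell line averaged. Tests between B-cell lines ran on the 6 B-cell arrays, with the spread between duplicates as error, and speak of those cultures only.

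Marker genes separated the classes as labelled. The mean of 4 B-cell markers lay between 6.82 and 7.28 on the PCM arrays, against 10.55 to 11.20 on the B-cell arrays, and the mean of 5 plasma cell markers lay between 10.69 and 11.03 on the PCM arrays, against 7.14 to 8.41. T-cell markers (4 of 5 measured) averaged 7.18 to 7.52 in PCM and 7.16 to 7.26 in B-cell arrays, and myeloid markers (4 of 5) averaged 5.37 to 5.43 in PCM and 5.29 to 5.38 in B-cell arrays. The arrays labelled L363 and U266 were close to each other: their difference had an SD of 0.32 over all probe sets, against 0.55 for either of them and LP1, and 0.22, 0.35 and 0.24 for the duplicates of Namalwa, SU-DHL6 and SU-DHL4. Over the 15 gate probe sets the SD of the difference was 0.36 between L363 and U266, against 0.70 between L363 and LP1 and 0.75 between U266 and LP1. Calls between PCM and B-cell lines are therefore also given with this pair averaged.

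Sequence before the transcription start is shown for CDKN1B, the inhibitor that differed most between the groups, and for CDK4, the kinase that differed least. Both are the 250 bases before the RefSeq start on build GRCh38.p14, printed 5′ to 3′ on the gene's own strand, with motif matches in capitals. Capitals mark CCAAT in CDKN1B and the E-box CACGTG, the sequence bound by MYC and its partner MAX, in CDK4.
CDKN1B, chr12:12717118-12717367, plus strand: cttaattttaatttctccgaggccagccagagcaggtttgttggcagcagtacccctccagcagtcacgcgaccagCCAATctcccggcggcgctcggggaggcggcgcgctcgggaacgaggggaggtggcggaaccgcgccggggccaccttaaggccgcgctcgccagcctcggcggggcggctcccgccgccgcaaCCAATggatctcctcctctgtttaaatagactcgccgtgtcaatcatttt
CDK4, chr12:57752311-57752560, minus strand: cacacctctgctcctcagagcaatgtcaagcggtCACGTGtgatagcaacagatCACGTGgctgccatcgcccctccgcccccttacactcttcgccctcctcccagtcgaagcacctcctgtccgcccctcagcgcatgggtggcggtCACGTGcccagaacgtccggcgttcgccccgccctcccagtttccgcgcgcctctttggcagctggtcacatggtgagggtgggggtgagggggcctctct
The motifs searched on both strands were CACGTG, the E2F forms TTTCCCGC and TTTGGCGC, the forkhead form GTAAACA, the CCAAT box and the TATA box form TATAAA. CDKN1B held 2 CCAAT matches, and 32.0% of 35116 windows of this length held at least 1. The CDKN1B window held no match to the forkhead form or to any other motif searched. CDK4 held 3 CACGTG matches. At least 1 such match stood in 6.34% of windows, and 3 or more stood in 28 windows, or 0.0797%. These matches describe the letters only, and no binding was measured.

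Across the gate, 4 of the 15 probe sets were higher and 1 was lower in PCM lines, against 1.12% of all probe sets called higher and 1.67% called lower. The calls lay in 3 of the 9 measured genes: CCND2 rose at all 3 of its probe sets, CDKN1B rose, and RB1 fell at 1 of its 2 probe sets. Probe sets of 1 gene are not separate members, and the members were chosen with earlier results of these data known. The shares therefore describe the gate and do not test it. PCM and B-cell lines did not overlap at 6 of the 15 probe sets, against 28.2% of all probe sets. The median difference was 0.03 over the gate and 0.05 over all probe sets, and the median size of the difference was 0.56 over the gate and 0.18 over all.

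**Figure D1:**
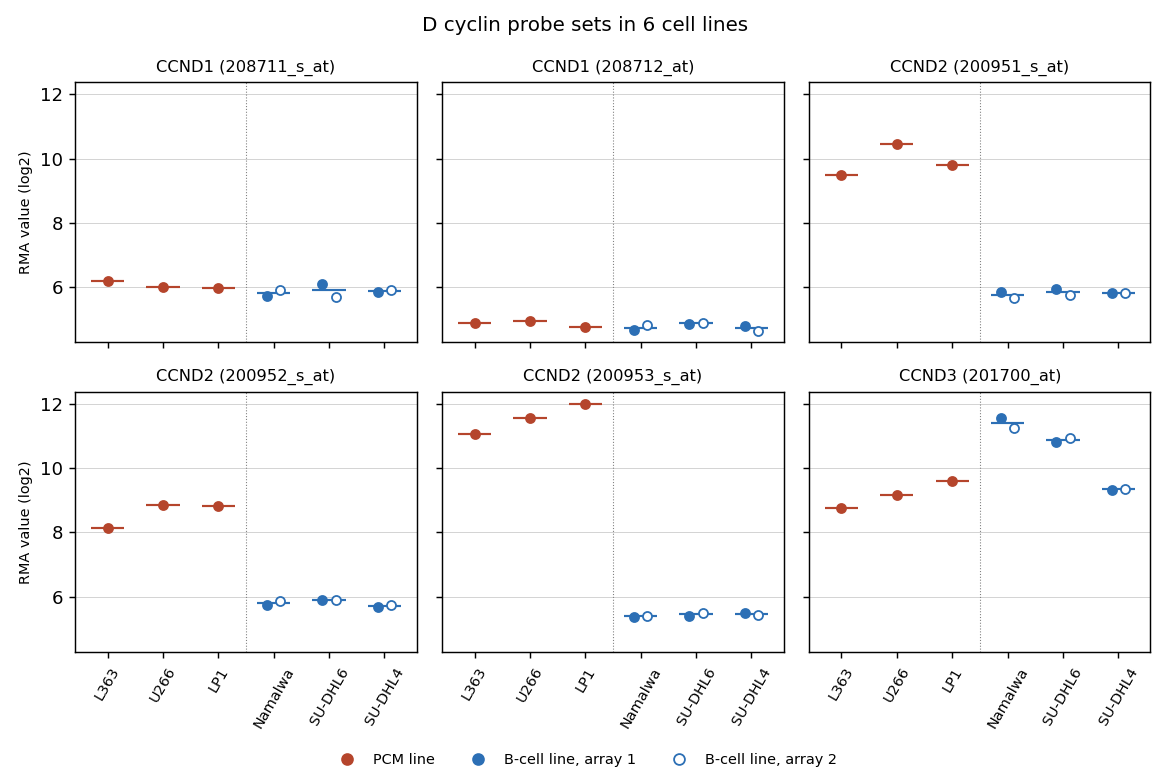
RMA log2 value (vertical axis) of the 6 D cyclin probe sets in each cell line (horizontal axis), with red points for the 3 PCM lines, blue points for the 2 arrays of each B-cell line and short bars for the line means. CCND2 lies above 8 in every PCM line and below 6 in every B-cell array, CCND1 hardly varies, and CCND3 reaches above 10 in Namalwa and SU-DHL6 alone.

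CCND2, the D cyclin that signals such as cytokines and MAF induce in lymphoid cells, was the member with the largest difference. At 200953_s_at it read 11.06 in L363, 11.55 in U266 and 12.00 in LP1, against 5.38 and 5.39 in Namalwa, 5.41 and 5.49 in SU-DHL6, and 5.48 and 5.45 in SU-DHL4. The groups did not overlap, and the B-cell lines could not be told apart beyond the duplicates. The difference was 6.10 (SE 0.24, limma adjusted p = 0.00167). In bulk RNA the share of cells with a transcript and the amount per cell cannot be told apart.

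The other CCND2 probe sets showed the same split. At 200951_s_at CCND2 read 9.48 in L363, 10.44 in U266 and 9.79 in LP1, against 5.84 and 5.65 in Namalwa, 5.93 and 5.76 in SU-DHL6, and 5.81 and 5.82 in SU-DHL4. At 200952_s_at it read 8.13 in L363, 8.87 in U266 and 8.81 in LP1, against 5.75 and 5.86 in Namalwa, 5.91 and 5.88 in SU-DHL6, and 5.69 and 5.73 in SU-DHL4. The differences were 4.10 (SE 0.25, limma adjusted p = 0.00539) and 2.80 (SE 0.22, adjusted p = 0.00788). Each of the 3 calls held with any 1 line left out, and with L363 and U266 averaged the differences were 6.22, 4.07 and 2.85 with limma adjusted p-values of 0.0149, 0.00843 and 0.0154.

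The probe sets did not order the PCM lines alike. LP1 was highest at 200953_s_at, by 0.46 over U266, while U266 was highest at 200951_s_at, by 0.65 over LP1. At 200952_s_at U266 and LP1 lay 0.05 apart, which is less than the largest gap of 0.10 between duplicate arrays there. L363 was lowest of the 3 PCM lines at all 3 probe sets.

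CCND1, the D cyclin of the familiar rearrangements in myeloma and mantle cell lymphoma, hardly varied over the 6 lines. At 208711_s_at it read 6.19 in L363, 6.02 in U266 and 5.98 in LP1, against 5.73 and 5.92 in Namalwa, 6.11 and 5.71 in SU-DHL6, and 5.83 and 5.90 in SU-DHL4. The line means did not overlap, but the first SU-DHL6 array was above U266 and LP1, and the whole range over lines, 0.37, was less than the gap of 0.40 between the SU-DHL6 duplicates. The difference was 0.20 (SE 0.09, limma adjusted p = 0.281), with a 95% interval of -0.02 to 0.41.

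At 208712_at CCND1 read 4.89 in L363, 4.93 in U266 and 4.76 in LP1, against 4.67 and 4.81 in Namalwa, 4.85 and 4.89 in SU-DHL6, and 4.80 and 4.65 in SU-DHL4. The groups overlapped (difference 0.09, SE 0.08, limma adjusted p = 0.590). As background, U266 is known for high CCND1 caused by an immunoglobulin enhancer inserted beside the gene. The array labelled U266 showed no raised CCND1 at either probe set, and its CCND2 was high, so that U266 is named here only as the label of that array.

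Of the D cyclins, CCND3 varied most among the B-cell lines. It read 8.76 in L363, 9.17 in U266 and 9.62 in LP1 at 201700_at, against 11.56 and 11.25 in Namalwa, 10.82 and 10.93 in SU-DHL6, and 9.33 and 9.36 in SU-DHL4. Namalwa and SU-DHL6 were above every PCM line, whereas SU-DHL4 lay between LP1 and U266, so the groups overlapped. PCM lines differed from B-cell lines by -1.36 (SE 0.56, limma adjusted p = 0.262), with a 95% interval of -2.75 to 0.04. Without SU-DHL4 the difference was -1.96, and it still did not pass (limma adjusted p = 0.0975).

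Between the B-cell lines, CCND3 was among 2 of the 15 gate probe sets that passed for SU-DHL6 against SU-DHL4, a comparison in which 8.52% of all probe sets were called. It was 1.53 higher in SU-DHL6 than in SU-DHL4 (SE 0.13, limma adjusted p = 0.00310). For Namalwa against the SU-DHL lines, 2 of the 15 passed as well, against 9.01% of all probe sets. CCND3 was 1.30 higher in Namalwa than the mean of the SU-DHL lines (SE 0.11, limma adjusted p = 0.00324). Both shares of called members were near the share of all probe sets.

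**Figure D2:**
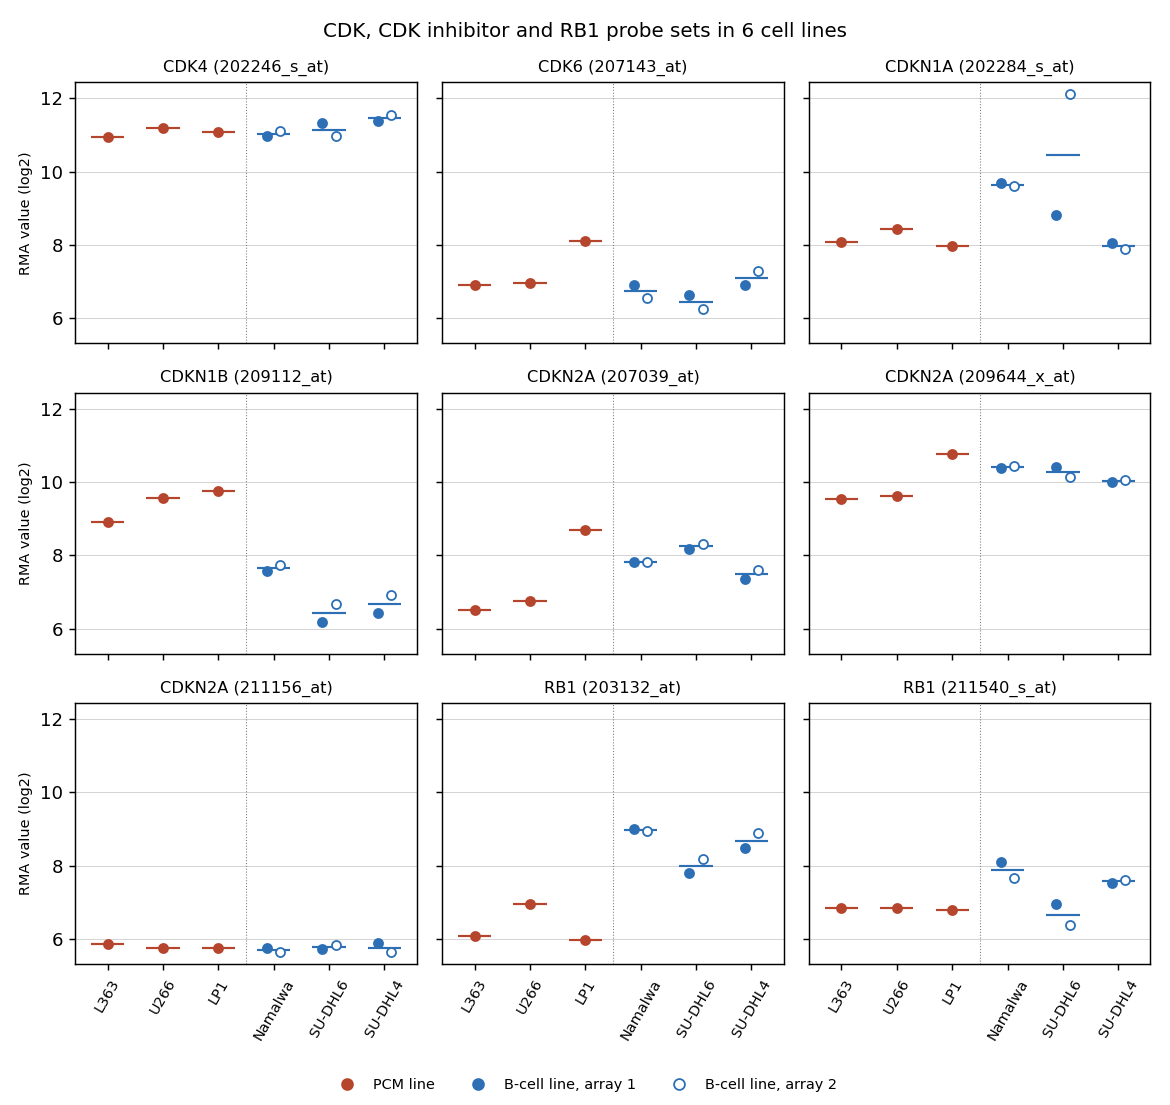
RMA log2 value (vertical axis) of the 9 probe sets of CDK4, CDK6, the inhibitors and RB1 in each cell line (horizontal axis), drawn as for the D cyclins with red PCM lines and blue B-cell arrays. CDKN1B is higher and RB1 at 203132_at lower in all 3 PCM lines, LP1 stands apart from L363 and U266 at CDK6 and at 2 CDKN2A probe sets, and the open SU-DHL6 point at CDKN1A lies far above its duplicate.

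Neither partner kinase passed between the groups. CDK4, which forms the active complex with any D cyclin, read 10.95 in L363, 11.19 in U266 and 11.08 in LP1, against 10.97 and 11.10 in Namalwa, 11.32 and 10.98 in SU-DHL6, and 11.39 and 11.53 in SU-DHL4. The groups overlapped, and no line differed from its neighbour in the order by more than the largest gap between duplicates, 0.34. The difference was -0.14 (SE 0.14, limma adjusted p = 0.597), with a 95% interval of -0.48 to 0.20.

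CDK6, the other D cyclin kinase, read 6.91 in L363, 6.96 in U266 and 8.10 in LP1, against 6.92 and 6.55 in Namalwa, 6.64 and 6.25 in SU-DHL6, and 6.91 and 7.29 in SU-DHL4. LP1 was the highest line, 1.0 above SU-DHL4, the next in order, while the largest gap between duplicates was 0.38. L363 and U266 lay among the B-cell lines. The difference between the groups was 0.56 (SE 0.37, limma adjusted p = 0.432).

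Of the inhibitors, CDKN1B rose in PCM lines. This gene for p27 read 8.90 in L363, 9.55 in U266 and 9.76 in LP1, against 7.57 and 7.75 in Namalwa, 6.18 and 6.67 in SU-DHL6, and 6.43 and 6.92 in SU-DHL4. Every PCM array was above every B-cell array, by 1.24 between L363 and the Namalwa mean. The difference was 2.48 (SE 0.39, limma adjusted p = 0.0402). The call was lost without any 1 line other than Namalwa, with differences between 2.24 and 2.85 over the 6 lines left out and limma adjusted p-values up to 0.137, and with L363 and U266 averaged (difference 2.57, adjusted p = 0.103).

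Namalwa stood between the SU-DHL lines and the PCM lines for CDKN1B. It was 1.11 above the mean of the SU-DHL lines (SE 0.20, limma adjusted p = 0.0276), a call lost when either array of Namalwa or of SU-DHL4 was left out (limma adjusted p between 0.0584 and 0.211). SU-DHL6 and SU-DHL4 differed by -0.25 (SE 0.23, adjusted p = 0.591). Whether the separate origin of the Namalwa arrays plays a part in its difference was not tested, and for 1 line it cannot be told apart from the line itself.

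CDKN1A, the gene for p21 and a classical target of p53, read 8.08 in L363, 8.44 in U266 and 7.98 in LP1, against 9.68 and 9.60 in Namalwa, 8.82 and 12.11 in SU-DHL6, and 8.05 and 7.88 in SU-DHL4. Namalwa and both SU-DHL6 arrays were above every PCM line, SU-DHL4 lay at the level of the PCM lines, and the 2 SU-DHL6 arrays were 3.29 apart. The PCM against B-cell difference was -1.19 (SE 0.63, limma adjusted p = 0.352). It was -0.68 with the first array alone of each B-cell line and -1.70 with the second alone (limma adjusted p = 0.448 and 0.425).

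For SU-DHL6 against SU-DHL4 the CDKN1A difference was 2.50 (SE 0.99, limma adjusted p = 0.213). Without the first SU-DHL6 array it was 4.14 (adjusted p = 0.00152), and without the second it was 0.85 (adjusted p = 0.0259). In these fits SU-DHL6 had 1 array, and its spread was assumed to be that of the Namalwa and SU-DHL4 duplicates. The direction was the same with either array, but the size differed with the array used. Namalwa against the SU-DHL lines gave 0.43 with all arrays, -0.40 without the first SU-DHL6 array and 1.25 without the second (limma adjusted p = 0.895, 0.0676 and 0.00513).

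The gap between the SU-DHL6 duplicates at CDKN1A was the second largest of all 22215 probe sets. In that pair 35 probe sets differed more than 4-fold, against 1 in Namalwa and 2 in SU-DHL4. GADD45A, a growth arrest gene that p53 also induces, had the largest gap, with 10.05 on the second SU-DHL6 array against 6.45 on the first. Of the 14 measured genes of a list of other p53 targets, 11 were higher on the second array with a median of 0.46, against 6294 of 11963 genes and a median of 0.01. Among them TNFRSF10B (a death receptor) differed by 1.74, SESN1 (a stress-induced regulator of growth signalling) by 1.67 and CCNG1 (cyclin G1) by 0.92. The others ran the opposite way, BAX by -0.46, TP53I3 by -0.46 and PLK3 by -0.34. Large gaps also lay outside the list, such as 3.22 for RGS1, 3.04 for NRN1, 2.98 for S100A10, 2.66 for BNIP3L and -2.88 for DHX9. No test stands behind these gaps, since each is 1 array against 1 array, and the culture state of the 2 arrays was not given in the labels.

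**Figure D3:**
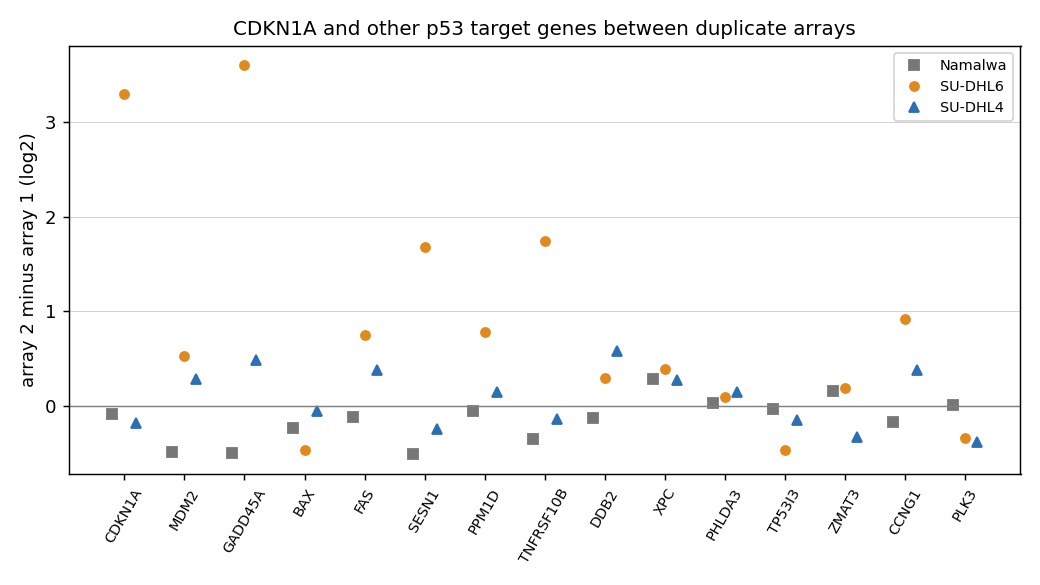
Difference between the second and the first array of a B-cell line (vertical axis, log2) for CDKN1A and 14 other p53 target genes (horizontal axis), with orange circles for SU-DHL6, blue triangles for SU-DHL4 and grey squares for Namalwa. CDKN1A and GADD45A differ by 3.29 and 3.60 in SU-DHL6, while the GADD45A duplicates differ by 0.48 in SU-DHL4 and by -0.50 in Namalwa.

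CDKN2A encodes both p16, which blocks CDK4 and CDK6, and p14ARF, which protects p53, from different first exons, and 3 probe sets carry its name. At 207039_at it read 6.50 in L363, 6.75 in U266 and 8.68 in LP1, against 7.83 and 7.82 in Namalwa, 8.18 and 8.31 in SU-DHL6, and 7.36 and 7.60 in SU-DHL4. LP1 was the highest and L363 the lowest of the 6 lines, so the B-cell lines lay inside the range of the PCM lines. The difference was -0.54 (SE 0.61, limma adjusted p = 0.642).

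At 209644_x_at CDKN2A read 9.53 in L363, 9.63 in U266 and 10.77 in LP1, against 10.38 and 10.44 in Namalwa, 10.42 and 10.15 in SU-DHL6, and 10.01 and 10.07 in SU-DHL4. LP1 was again highest with L363 and U266 lowest (difference -0.27, SE 0.35, limma adjusted p = 0.693). The suffix of this probe set marks probes that can also bind other transcripts. The third probe set, 211156_at, read between 5.76 and 5.86 in PCM lines and between 5.65 and 5.89 on the B-cell arrays, without separating any line (difference 0.03, SE 0.07, limma adjusted p = 0.819).

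LP1 exceeded the mean of L363 and U266 by 2.06 at 207039_at and by 1.19 at 209644_x_at, against largest gaps between duplicates of 0.24 and 0.27, and by -0.05 at 211156_at. Each PCM line had 1 array, and no test between PCM lines was made. Between B-cell lines, 207039_at was 0.77 higher in SU-DHL6 than in SU-DHL4 (SE 0.12, limma adjusted p = 0.0177), and the call was lost in 5 of the 6 fits that left out 1 B-cell array, the exception being the first SU-DHL6 array.

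RB1, the brake that the D cyclin kinases release, fell in PCM lines at 203132_at. It read 6.09 in L363, 6.96 in U266 and 5.98 in LP1, against 9.01 and 8.96 in Namalwa, 7.81 and 8.18 in SU-DHL6, and 8.48 and 8.90 in SU-DHL4. The groups did not overlap, and the nearest line means, SU-DHL6 and U266, lay 1.03 apart. The difference was -2.21 (SE 0.36, limma adjusted p = 0.0453). It stayed between -2.52 and -2.0 when a line was left out, but no such fit kept the call (limma adjusted p between 0.0566 and 0.168), nor did averaging L363 and U266 (-2.30, adjusted p = 0.0871) or taking the first array alone of each B-cell line (-2.09, adjusted p = 0.0659).

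At 211540_s_at RB1 read 6.85 in L363, 6.85 in U266 and 6.81 in LP1, against 8.09 and 7.66 in Namalwa, 6.96 and 6.38 in SU-DHL6, and 7.55 and 7.61 in SU-DHL4. Namalwa and SU-DHL4 were above every PCM line, but the SU-DHL6 mean was the lowest of the 6. The difference was -0.54 (SE 0.31, limma adjusted p = 0.382). RB1 thus passed at 1 of its 2 probe sets.

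SU-DHL6 was the lowest B-cell line at both RB1 probe sets. It differed from SU-DHL4 by -0.69 at 203132_at (SE 0.19, limma adjusted p = 0.0884) and, at 211540_s_at, by -0.91 (SE 0.23, limma adjusted p = 0.0755). Namalwa exceeded the SU-DHL lines by 0.64 (SE 0.16, adjusted p = 0.0747) and, at the other probe set, by 0.75 (SE 0.20, limma adjusted p = 0.0850). None of these 4 passed, although all 4 had an unadjusted p under 0.05. Some alternatives gave a call. At 203132_at Namalwa exceeded the SU-DHL lines by 0.66 with arrays centred on the 75th percentile and by 0.73 without the second SU-DHL6 array (limma adjusted p = 0.0439 and 0.0493). At 211540_s_at SU-DHL6 differed from SU-DHL4 by -0.91 among probe sets above the median level and by -1.19 without the first SU-DHL6 array (limma adjusted p = 0.0474 and 0.0297). Without that array Namalwa exceeded the SU-DHL lines there by 0.90 (limma adjusted p = 0.0300).

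**Figure D4:**
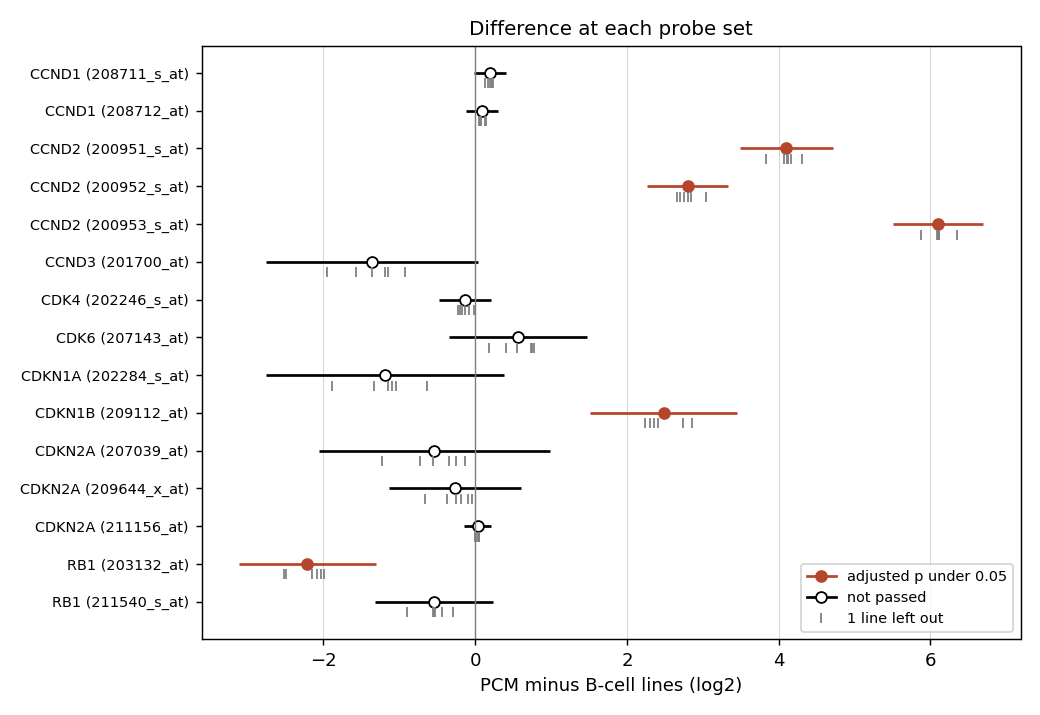
Difference between PCM and B-cell lines (horizontal axis, log2) at each of the 15 probe sets (vertical axis), with lines for the 95% interval, filled red points where the limma adjusted p was under 0.05 and grey ticks for the fits with 1 line left out. The CCND2 probe sets lie between 2.80 and 6.10, CDKN1B at 2.48 and RB1 at -2.21, and the intervals of the other 10 probe sets reach across 0.

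The newly made arrays alone gave the same directions for the called members. Without Namalwa, the line of the earlier work, the CCND2 differences were 6.08, 4.07 and 2.80 (limma adjusted p = 0.00699, 0.0195 and 0.0275), CDKN1B was 2.85 (adjusted p = 0.0301) and RB1 at 203132_at was -2.0 (adjusted p = 0.103).

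Other genes of the pathway were read from 4 lists, each gene at its brightest single-gene probe set, where 1.35% of all genes were called higher and 1.95% lower in PCM lines. Of 23 measured G1-S partners, which hold the cyclins E, CDK2, the other inhibitors, the E2F and TFDP factors and the SCF-SKP2 components, none was higher and 2 were lower, with a median difference of -0.09 against 0.05 over all genes. TFDP1, the DNA-binding partner of E2F factors, read 9.79 in L363, 10.27 in U266 and 9.68 in LP1, against 11.46 in Namalwa, 11.20 in SU-DHL6 and 11.71 in SU-DHL4 (difference -1.54, SE 0.20, limma adjusted p = 0.0272). A second TFDP1 probe set fell by 1.63 (adjusted p = 0.0402).

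SKP2, the F-box protein that marks p27 for destruction, read 8.12 in L363, 8.32 in U266 and 8.44 in LP1, against 9.64 in Namalwa, 9.06 in SU-DHL6 and 9.27 in SU-DHL4. The SKP2 groups did not overlap at this probe set (difference -1.03, SE 0.17, limma adjusted p = 0.0474). Its other probe sets gave -0.19 and -0.53 and did not pass (adjusted p = 0.768 and 0.311). The called SKP2 probe set is also of the kind whose probes can bind other transcripts.

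Of 19 measured S-phase genes that E2F controls, none was higher and 1 was lower, and 15 had a negative difference, against 4795 of the 11963 genes, with a median of -0.56. An unadjusted limma p under 0.05 was found for 10 of the 19, against 2579 of the 11963 genes. CDK1, the mitotic kinase, read 9.30 in L363, 9.69 in U266 and 9.72 in LP1, against 10.87 in Namalwa, 10.36 in SU-DHL6 and 10.63 in SU-DHL4 (difference -1.05, SE 0.18, limma adjusted p = 0.0484). Of its other probe sets, 1 passed (-1.18, limma adjusted p = 0.0309) and 1 did not (-1.22, adjusted p = 0.0760). RRM2, a ribonucleotide reductase subunit, differed by -0.48 (SE 0.09, adjusted p = 0.0670) and did not pass.

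Of 14 measured p53 targets none passed in limma, and 3 had an unadjusted p under 0.05. Their median was -0.09, and the smallest p-values belonged to GADD45A (difference -1.87, SE 0.57, limma adjusted p = 0.165) and to BAX, a pore-forming death protein (-1.21, SE 0.38, adjusted p = 0.169). For GADD45A the PCM lines read 6.96 to 7.12, against line means of 10.22 in Namalwa, 8.25 in SU-DHL6 and 8.16 in SU-DHL4, and the first SU-DHL6 array lay below every PCM line.

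Among 14 measured regulators of D cyclins and of p27, 2 were higher and 1 was lower in PCM lines, with a median of 0.25. FOXO3, a forkhead factor known to raise CDKN1B transcription, read 8.90 in L363, 9.06 in U266 and 9.25 in LP1, against 7.79 in Namalwa, 7.76 in SU-DHL6 and 7.82 in SU-DHL4 (difference 1.28, SE 0.11, limma adjusted p = 0.00982). PIM2, a survival kinase, read 9.83 in L363, 10.04 in U266 and 10.28 in LP1, against 8.89 in Namalwa, 8.53 in SU-DHL6 and 8.04 in SU-DHL4 (difference 1.56, SE 0.24, adjusted p = 0.0402). BCL6, a germinal centre repressor whose known targets include CCND2, read 5.69 in L363, 5.58 in U266 and 5.52 in LP1, against 10.29 in Namalwa, 10.46 in SU-DHL6 and 11.10 in SU-DHL4 (difference -5.02, SE 0.22, adjusted p = 0.00222). The groups did not overlap at any of these 3 genes. Of the 6 called genes in the 4 lists, with L363 and U266 averaged, FOXO3 (1.32, limma adjusted p = 0.0337) and BCL6 (-5.04, adjusted p = 0.0229) kept their calls. TFDP1, SKP2, CDK1 and PIM2 lost theirs (limma adjusted p = 0.0608, 0.135, 0.113 and 0.111), each in the same direction. FOXO1, a forkhead relative of FOXO3, had a difference of -1.34 that did not pass (SE 0.24, adjusted p = 0.0575).

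MAF and FGFR3, both known targets of myeloma rearrangements, were highest in LP1. MAF, a transcription factor known to activate CCND2, read 9.23 in LP1, 5.29 in L363 and 5.30 in U266, and 5.12 to 5.16 in the B-cell lines. FGFR3, a receptor kinase switched on in the rearrangement LP1 is known for, read 8.48 in LP1, 6.32 in L363 and 6.34 in U266, and 5.94 to 6.15 in the B-cell lines. NSD2, a histone methyltransferase gene beside FGFR3, read 8.62 in L363, 8.89 in U266 and 9.89 in LP1, against 9.52 in Namalwa, 9.38 in SU-DHL6 and 9.74 in SU-DHL4. LP1 was the highest line for NSD2 too, above the other PCM lines but near the B-cell lines. Neither MAF nor FGFR3 passed between the groups (limma adjusted p = 0.490 and 0.401). MYC, whose product is known to raise CCND2 and CDK4 and to repress CDKN1A, read 11.09 in L363, 11.38 in U266 and 11.82 in LP1, against 10.92 in Namalwa, 10.22 in SU-DHL6 and 11.63 in SU-DHL4 (difference 0.51, SE 0.39, adjusted p = 0.498). Between SU-DHL6 and SU-DHL4, 4 of the 14 regulators were called, against 1150 of the 11963 genes. MYC, at 10.70 and 9.75 on the SU-DHL6 arrays, differed by -1.41 (SE 0.30, limma adjusted p = 0.0474), STAT5B, a cytokine signal factor, by -1.44 (SE 0.10, adjusted p = 0.00241), BCL6 by -0.64 (SE 0.11, adjusted p = 0.0252) and PIM1, a survival kinase related to PIM2, by 1.81 (SE 0.09, adjusted p = 0.00116).

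**Figure D5:**
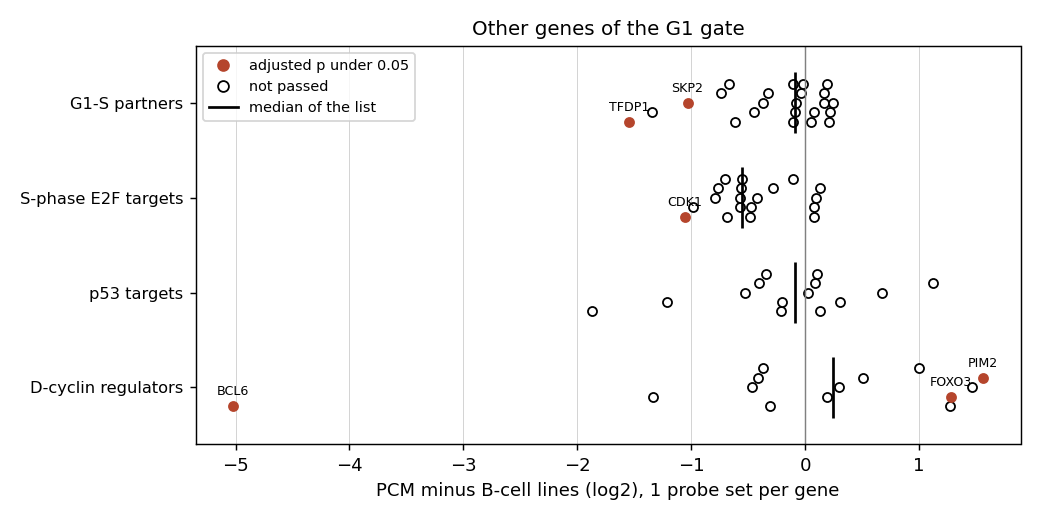
Difference between PCM and B-cell lines (horizontal axis, log2) for each measured gene of 4 lists (vertical axis), 1 probe set per gene, with filled red points where the limma adjusted p was under 0.05 and black bars for the list medians. The called genes are TFDP1, SKP2, CDK1, PIM2, FOXO3 and BCL6, and the S-phase list has its median at -0.56.

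For the brightest probe set of each member that ranged over at least 2 log2 units across the 6 lines, the 3 genes with the smallest Euclidean distance between line-centred values were named. The Pearson correlations given with them are over 6 lines, and where a member separates the groups they mostly describe that 1 step. Nearest to CCND2 at 200953_s_at were ITM2A (distance 1.36, r = 0.996), GAS2 (2.20, r = 0.974) and SRGN (2.24, r = 0.957). Like CCND2 at that probe set, these genes were highest in LP1, but their lowest PCM line was U266 and not L363. ITM2A, a small membrane protein gene, read 9.07 in L363, 8.85 in U266 and 9.87 in LP1, against 4.12 to 4.26 in the B-cell lines.

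CDKN1B lay nearest to ZNF217 (0.70, r = 0.992), TNFAIP3 (0.72, r = 0.977) and LY6E (0.75, r = 0.977), and all 3 shared its intermediate level in Namalwa. RB1 lay nearest to BNIP3 (0.54, r = 0.994), ARHGEF7 (0.78, r = 0.981) and SYNCRIP (0.80, r = 0.963). CCND3, which does not separate the groups, lay nearest to EZR (0.67, r = 0.958), BMP7 (0.76, r = 0.953) and LBH (0.78, r = 0.966). EZR, which encodes the membrane linker ezrin, read 7.88 to 9.03 in PCM lines, against 10.29 in Namalwa, 10.38 in SU-DHL6 and 9.08 in SU-DHL4, so that SU-DHL4 was the low B-cell line for both genes. CDKN1A lay nearest to ANKRD13C-DT (0.83, r = 0.940), CD83 (0.87, r = 0.936) and PCDH9 (0.92, r = 0.922), with the SU-DHL6 mean of its disparate arrays as the highest value.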

How the data were processed

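RNA from 6 cell lines was measured on 9 Affymetrix Human Genome arrays. Per the submitters' processing notes, the authors' RMA run gave the deposited log2 values of 22283 probe sets. No source used here names the RMA version or says if the arrays were run as 1 set. A second table deposited by the authors held a p-value and a Benjamini-Hochberg corrected p-value per probe set, under headers that do not name the test. Its log2 difference column matched B-cell minus PCM means over 9 arrays to within 4.8e-08, and its sign was turned.

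The values were used without further normalization in R 4.3.3 with limma 3.58.1 (lmFit, eBayes), after 68 control probe sets were left out. PCM against B-cell lines had 4 residual degrees of freedom, and the tests between B-cell lines had 3. All tests were two-sided. The number of arrays limits the precision, and RMA values carry no detection calls. The scripts were tested on artificial data. Deviations between duplicates correlated between lines at -0.44 for Namalwa and SU-DHL4, -0.15 for Namalwa and SU-DHL6, and 0.20 for SU-DHL4 and SU-DHL6. The signs depend on how the arrays of a line were numbered, so they cannot decide whether arrays of different lines belong together. A replicate block was fitted with the numbers as labelled only, and a swapped order was not tested. Nothing in the labels says whether duplicates came from separate cultures, so p-values between B-cell lines may measure technical spread.

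Every member probe set is reported. Of each list, called genes are named, up to 6 by smallest p, or the 2 with the smallest p where fewer than 2 were called. MYC, STAT5B, PIM1, FOXO1, MAF, FGFR3, NSD2, TNFRSF10B, SESN1, CCNG1, TP53I3, PLK3, RGS1, NRN1, S100A10, BNIP3L and DHX9 were named outside that rule, after their values were seen. The members, lists and comparisons were chosen with earlier results of these data known. Promoter sequences are from RefSeq, with a window for 7 of the 9 measured genes. Alternatives were the unit of replication, the arrays averaged, scaling, filters, the variance model, a stricter threshold and each line or array left out.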

Additional observations from a re-analysis of the deposited data

How the results depend on the processing

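CCND2 kept its 3 calls for PCM against B-cell lines in every alternative that tested it, and no other member gained one. The 5 calls among members became 3 with L363 and U266 averaged and 3 at an adjusted p under 0.01. They became 4 with the first arrays alone and 3 to 4 with a line left out. Without probe sets that can bind several transcripts they became 2 (7 tested). Those 2 were CDKN1B and RB1 at 203132_at (limma adjusted p = 0.0437 and 0.0498). All 3 CCND2 probe sets are of that kind and so were not tested there. The difference of CDKN2A at 211156_at turned to -0.0090 with the first arrays alone and to -0.043 after a second quantile normalization, and ranged from -0.00029 to 0.049 with a line left out. Over all probe sets the 619 calls became 2189 with 9 arrays as replicates, 2188 in the authors' deposited table, 1567 with line as a random block, 184 with L363 and U266 averaged, 271 without probe sets that can bind several transcripts, 75 at 0.01 and 131 to 897 with a line left out. Centring on the 75th percentile moved the median difference by 0.09.

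Between B-cell lines, the 2 member calls of either comparison became 1 at 0.01 and 1 to 4 with an array left out. They became 3 for SU-DHL6 against SU-DHL4 among probe sets above the median level, and 3 for Namalwa with centring, each time through RB1. Used as a replicate block, the replicate number left 2 calls in each. Signs turned at differences near 0, except for CDKN1A in Namalwa, whose difference with all arrays was 0.43. For SU-DHL6 against SU-DHL4, quantile normalization gave -0.016 for CCND1 208711_s_at, -0.017 for CCND2 200951_s_at and -0.027 for CDKN2A 211156_at, centring gave 0.039 for CCND2 200953_s_at, and leaving out arrays gave -0.16 to 0.24, -0.053 to 0.12, -0.098 to 0.15 and -0.052 to 0.024 for these 4. For Namalwa against the SU-DHL lines, quantile normalization gave -0.0054 for CCND2 200952_s_at. Leaving out arrays there gave -0.051 to 0.052 for that probe set, -0.18 to 0.012 for CCND2 200951_s_at, -0.16 to 0.036 and -0.13 to 0.0093 for CCND1 208711_s_at and 208712_at, -0.22 to 0.15 for CDK6, -0.40 to 1.25 for CDKN1A and -0.10 to 0.021 for CDKN2A 207039_at. The causes were not tested. With 1 array per PCM line, the error of a PCM value was not measured.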

Other observations

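Chromosomal neighbours of the members were read after the members' values were seen, as the 5 nearest measured genes on either side in RefSeq order. Around CCND2 on chromosome 12, none of the 10 passed in either direction by limma for PCM against B-cell lines, and their median difference was -0.08. An unadjusted limma p under 0.05 was found for 4 of them, against 2579 of 11963 genes. The nearest gene on 1 side, TIGAR (a regulator of glycolysis), differed by -1.68 (adjusted p = 0.0734), opposite in sign to CCND2. Around RB1 on chromosome 13, none of 10 passed in limma (3 had an unadjusted p under 0.05). Of these 10, 6 were negative, against 4795 of 11963 genes, with a median of -0.22. ESD, SUCLA2 and MED4 differed by -1.11, -0.92 and -1.11 on 1 side of RB1 (limma adjusted p between 0.116 and 0.209). ITM2B, next to RB1 on that side, differed by 0.16. On the other side the differences ran from -0.82 for RCBTB2 to 0.24 for CYSLTR2.

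Around CDKN1B, also on chromosome 12, all 10 neighbours had a positive difference, against 7168 of 11963 genes, with a median of 0.16, and 1 passed. That gene was GPRC5D, a plasma cell surface receptor, with a difference of 1.44 (limma adjusted p = 0.0421), and 1.41 with L363 and U266 averaged (adjusted p = 0.0337). Around CDKN1A on chromosome 6, 9 of 10 neighbours were negative, against 4795 of 11963 genes, and RNF8, a ubiquitin ligase of the DNA damage response, was lower in PCM lines (difference -0.92, limma adjusted p = 0.0278), which did not pass with L363 and U266 averaged (-0.93, adjusted p = 0.0791). Around CDK4, OS9, which encodes a lectin of protein quality control, was higher in PCM lines (difference 0.74, limma adjusted p = 0.0456), and it did not pass with the pair averaged (0.77, adjusted p = 0.105). Around CCND1, CCND3, CDK6 and CDKN2A no neighbour passed in limma, and 2, 0, 0 and 2 of the 10 had an unadjusted p under 0.05.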
